A study of Homo sapiens with 12 samples.

Results

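Knockout cells given a stimulus and an inhibitor were set against unedited cells given the stimulus alone. Both were induced microglia-like cells (iMGLs), a culture model of the resident macrophages of the brain made from the pluripotent human stem cell line H1. KO LPS BMS cells (2 libraries) carried a knockout of MEF2C and received lipopolysaccharide (LPS) and the compound BMS265246, which the series title describes through inhibition of the kinase CDK2. WT LPS cells (2 libraries) were unedited and received LPS without the compound. These 4 of the 12 RNA libraries were chosen by their labels, as the columns of the count table named for these groups. The comparison asks how near the inhibitor brings stimulated knockout cells to the state of stimulated unedited cells. Genotype and compound both differ between the groups, and the compound was given neither to WT cells nor without LPS, so the share of each cannot be read from this comparison alone. KO LPS cells (2 libraries, knockout with LPS, no compound) are given beside it, since they share the genotype of the first group and the absence of compound of the second. The remaining 6 libraries, 3 WT and 3 KO without LPS, entered the estimate of the spread and the principal components. They are otherwise given only for MEF2C and for the summed level of interferon-stimulated genes. The sources used here give no doses, treatment times, kind of edit or number of edited clones.

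LPS is sensed through TLR4, which starts an NF-kB response of cytokines and chemokines and, through IRF3 and secreted interferon beta, a second wave of interferon-stimulated genes. MEF2C is a transcription factor of microglia and neurons that has been described as a brake on the inflammatory response of microglia. CDK2 is a cyclin-dependent kinase best known for driving cells through S phase, and BMS265246 is known as an inhibitor of CDK1 and CDK2. Other kinases of this family, such as CDK9, control transcription by RNA polymerase II.

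The total count was 14575747 and 17591433 in the KO LPS BMS libraries, and 16700733 and 17639136 in the WT LPS libraries. Levels are given as CPM, counts rescaled to one common library size after scaling by the trimmed mean of M-values (TMM), with replicate 1 before replicate 2, and a count of 0 allowed up to 0.193 to 0.236 CPM in KO LPS BMS and 0.188 to 0.199 CPM in WT LPS. Such limits cover counting error only. Fold changes are log2 values from edgeR ± their standard error, calls required a p under 0.05 after Benjamini-Hochberg adjustment over all genes tested, and n = 2 libraries in each LPS group throughout. The labels call the libraries biological replicates without saying which cultures they came from, so the p-values measure the spread between these libraries, and with 2 per group that spread is borrowed from all 12. An exact permutation test of 2 against 2 cannot give a two-sided p under 0.333. The pair of KO LPS libraries differed most, with a chi-square per degree of freedom of 11.1, against 4.92 for the KO LPS BMS pair and 6.99 for the WT LPS pair.

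MEF2C itself (ENSG00000081189, chromosome 5, 88717117 to 88904257, minus strand, as are all positions from GENCODE on GRCh38) had 43.7 and 44.1 CPM in KO LPS BMS, 45.9 and 46.8 CPM in KO LPS and 49.6 and 51.6 CPM in WT LPS. The KO LPS BMS libraries were the lowest and the groups did not overlap, but the difference was small (-0.20 ± 0.07, adjusted p = 0.019). This call was lost when a single KO LPS BMS library or WT LPS replicate 2 was left out, and when only the 4 compared libraries or only the 6 with LPS were fitted. Without LPS, MEF2C had 136, 129 and 135 CPM in KO and 193, 183 and 177 CPM in WT. The edited part of the gene is not stated in the sources used here, so the RNA level does not check the genotype labels. Markers of microglia were detected in every group, at very unequal levels. Of 10 defining markers 9 were tested, and the summed level was 4173 to 4575 CPM in KO LPS BMS, 3992 to 4495 CPM in KO LPS and 4066 to 4538 CPM in WT LPS. Against WT LPS, 4 were higher, 3 lower and 2 not called in KO LPS BMS, beside 56.4% of all genes called. CSF1R was a large part of the sum, with 1536 and 1469 CPM in KO LPS BMS and 2046 and 1947 CPM in WT LPS. P2RY12 had 5.99 and 5.41 CPM in KO LPS BMS and 1.93 and 1.69 CPM in WT LPS. The sum alone does not show microglial identity. SALL1, a transcription factor of brain microglia, had no count in either WT LPS library and 1 or 2 counts in the KO LPS BMS libraries.

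Across all genes, KO LPS BMS cells stood further from WT LPS cells than KO LPS cells did. Of 16022 genes tested, 9034 (56.4%) were called between KO LPS BMS and WT LPS, 4502 (28.1%) higher and 4532 (28.3%) lower. Between KO LPS and WT LPS 4900 genes (30.6%) were called, and between KO LPS BMS and KO LPS 7658 (47.8%). The count of 4900 was 3005 without KO LPS replicate 2, 3138 without WT LPS replicate 2 and 2660 with only the 4 compared libraries. KO LPS BMS against WT LPS shares the WT LPS libraries with KO LPS against WT LPS, and the KO LPS BMS libraries with KO LPS BMS against KO LPS. The last of these is also the direct test of the difference between the other comparisons, because WT LPS cancels. At 2-fold or more, 3037 genes were called in KO LPS BMS against WT LPS and 900 in KO LPS against WT LPS. For 12180 genes (76%) the values of KO LPS BMS and WT LPS did not overlap, so an absence of overlap is common here. The median absolute log2 fold change over all genes was 0.495 with the compound and 0.272 without it, both against WT LPS, while the signed median with the compound was 0.01. The 95% interval lay within 1.5-fold of WT LPS for 4695 genes (29.3%) with the compound and for 7567 genes (47.2%) without it.

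Distances between single libraries ran in the same order. On log2 CPM, the Euclidean distance to WT LPS was 112.6 to 117.1 for the 4 pairs with KO LPS BMS and 72.1 to 85.9 for the 4 pairs with KO LPS. Between KO LPS BMS and KO LPS it was 95.6 to 99.2, and between the replicates of these groups 51.0 to 54.1. None of the ranges between groups overlapped another or reached the replicate distances. On the second principal component, which held 21.1% of the variance, the KO LPS BMS libraries were at 58.5 and 56.7, the KO LPS libraries at -15.5 and -9.44 and the WT LPS libraries at -48.2 and -51.6. On this component the KO LPS libraries lay between the other groups, nearer to WT LPS. The components before and after it placed the groups otherwise. On the first, with 53.4% of the variance, the KO LPS BMS libraries were at 58.1 and 59.5, the KO LPS libraries at 41.8 and 38.0 and the WT LPS libraries at 54.8 and 55.9, so KO LPS BMS lay beside WT LPS and KO LPS apart. On the next, with 9.6%, KO LPS BMS was at -14.9 and -18.2, KO LPS at 28.6 and 37.7 and WT LPS at -11.3 and -15.7, the same arrangement.

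**Figure D1:**
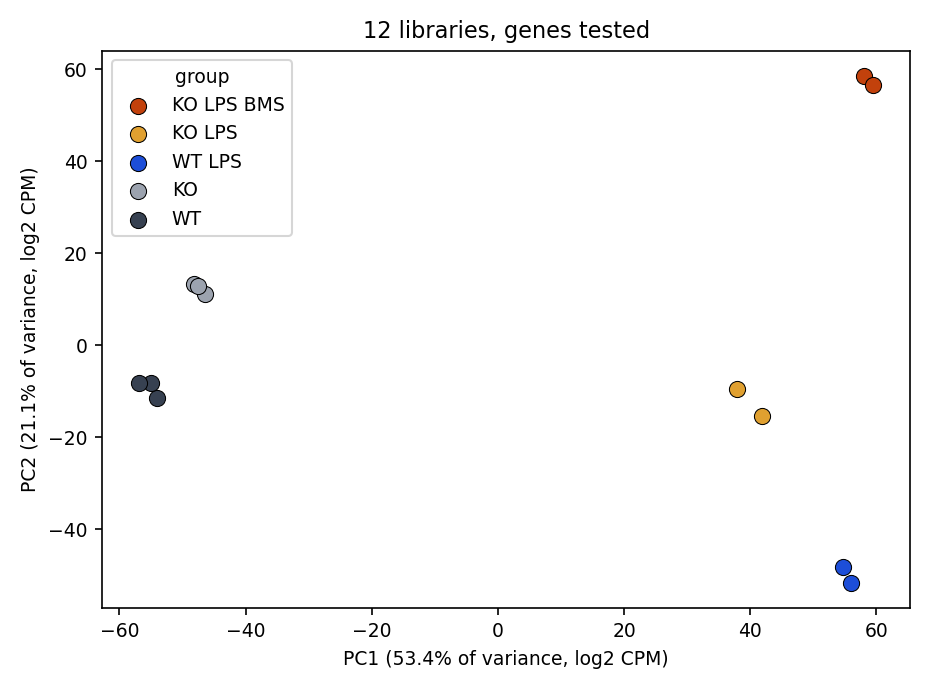
Principal components of log2 CPM in the 12 libraries, each point 1 library, coloured by group, with the share of variance on each axis. On the second component the KO LPS BMS libraries (58.5 and 56.7) lie on the far side of the KO LPS libraries from the WT LPS libraries (-48.2 and -51.6), while on the first they (58.1 and 59.5) lie beside WT LPS (54.8 and 55.9) and KO LPS (41.8 and 38.0) apart.

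The genes furthest above WT LPS included a cytokine subunit, a matrix protein and several surface proteins. The 10 largest called rises among genes with a mean of at least 5 CPM over the 4 libraries, chosen by size, ran from 4.70 ± 0.23 for ICAM5 to 3.36 ± 0.32 for CAMK4 on the log2 scale. ICAM5, an adhesion molecule best known from neurons (ENSG00000105376, chromosome 19, 10289981 to 10296778, plus strand), had 75.2 and 62.3 CPM in KO LPS BMS, 4.13 and 7.53 CPM in KO LPS and 3.06 and 2.25 CPM in WT LPS. IL12B, the p40 subunit shared by the cytokines IL-12 and IL-23, had 11.7 and 15.2 CPM in KO LPS BMS, 2.97 and 2.74 CPM in KO LPS and 1.59 and 1.00 CPM in WT LPS. Both were highest in KO LPS BMS and already above WT LPS in KO LPS. CCDC17, PCDH18, a protocadherin, and CAMK4, a calcium-dependent kinase, were less than 2-fold above WT LPS in KO LPS. PCDH18 had 10.7 and 12 CPM in KO LPS BMS, 1.29 and 1.30 CPM in KO LPS and 1.06 and 1.06 CPM in WT LPS. In contrast IBSP, bone sialoprotein, had 14.2 and 14.7 CPM in KO LPS BMS, 13.3 and 13.6 CPM in KO LPS and 0.997 and 0.5 CPM in WT LPS. Its KO libraries lay together, whether or not they received the compound, and WT LPS lay far below. F13A1, a clotting factor subunit made by macrophages, had 37.9 and 35.9 CPM in KO LPS BMS, 18.3 and 18.5 CPM in KO LPS and 3.12 and 3.13 CPM in WT LPS, a stepwise order with no overlap. DLK1, a Notch-related surface protein, and HS3ST2, a heparan sulfate sulfotransferase, completed the rises, with 3.56 ± 0.24 and 4.32 ± 0.35. ARHGAP31-AS1 (4.21 ± 0.29) is an antisense gene, and since the sources used here give no strand setting for the counting, its reads cannot be told apart from those of overlapping genes.

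The 10 largest called falls, chosen by size above the same mean, were of mixed kinds. ACOD1, the enzyme that makes itaconate in LPS-stimulated macrophages (ENSG00000102794, chromosome 13, 76948497 to 76958642, plus strand), had 2.99 and 1.29 CPM in KO LPS BMS, 25.7 and 23.3 CPM in KO LPS and 46.2 and 47.1 CPM in WT LPS (-4.49 ± 0.20, adjusted p = 1.53e-13). KO LPS BMS lay far below the other groups, and KO LPS below WT LPS. HAMP, the iron hormone hepcidin, had 22.5 and 20.6 CPM in KO LPS BMS, 102 and 112 CPM in KO LPS and 329 and 253 CPM in WT LPS. CCR7, the chemokine receptor that guides maturing dendritic cells, had 3.15 and 2.90 CPM in KO LPS BMS, 3.81 and 4.99 CPM in KO LPS and 32.3 and 29.1 CPM in WT LPS. Both fell against WT LPS (-3.76 ± 0.13 and -3.35 ± 0.19), and in CCR7 most of the distance was already there in KO LPS. The intergenic RNA LINC02605 was near the counting limit in KO LPS BMS, with 0.0788 and 0.258 CPM in KO LPS BMS, against 11.2 and 14.4 CPM in WT LPS, so its fold change is not given. RGS2, a regulator of G-protein signalling, MYH11, a smooth muscle myosin, SLC8A3, a sodium-calcium exchanger, PLEKHA5 and C1QTNF1 fell by 3.26 to 4.37 on the log2 scale. PRKAG2-AS2, antisense to a kinase subunit gene and subject to the same limit of strand, had -3.97 ± 0.17.

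**Figure D2:**
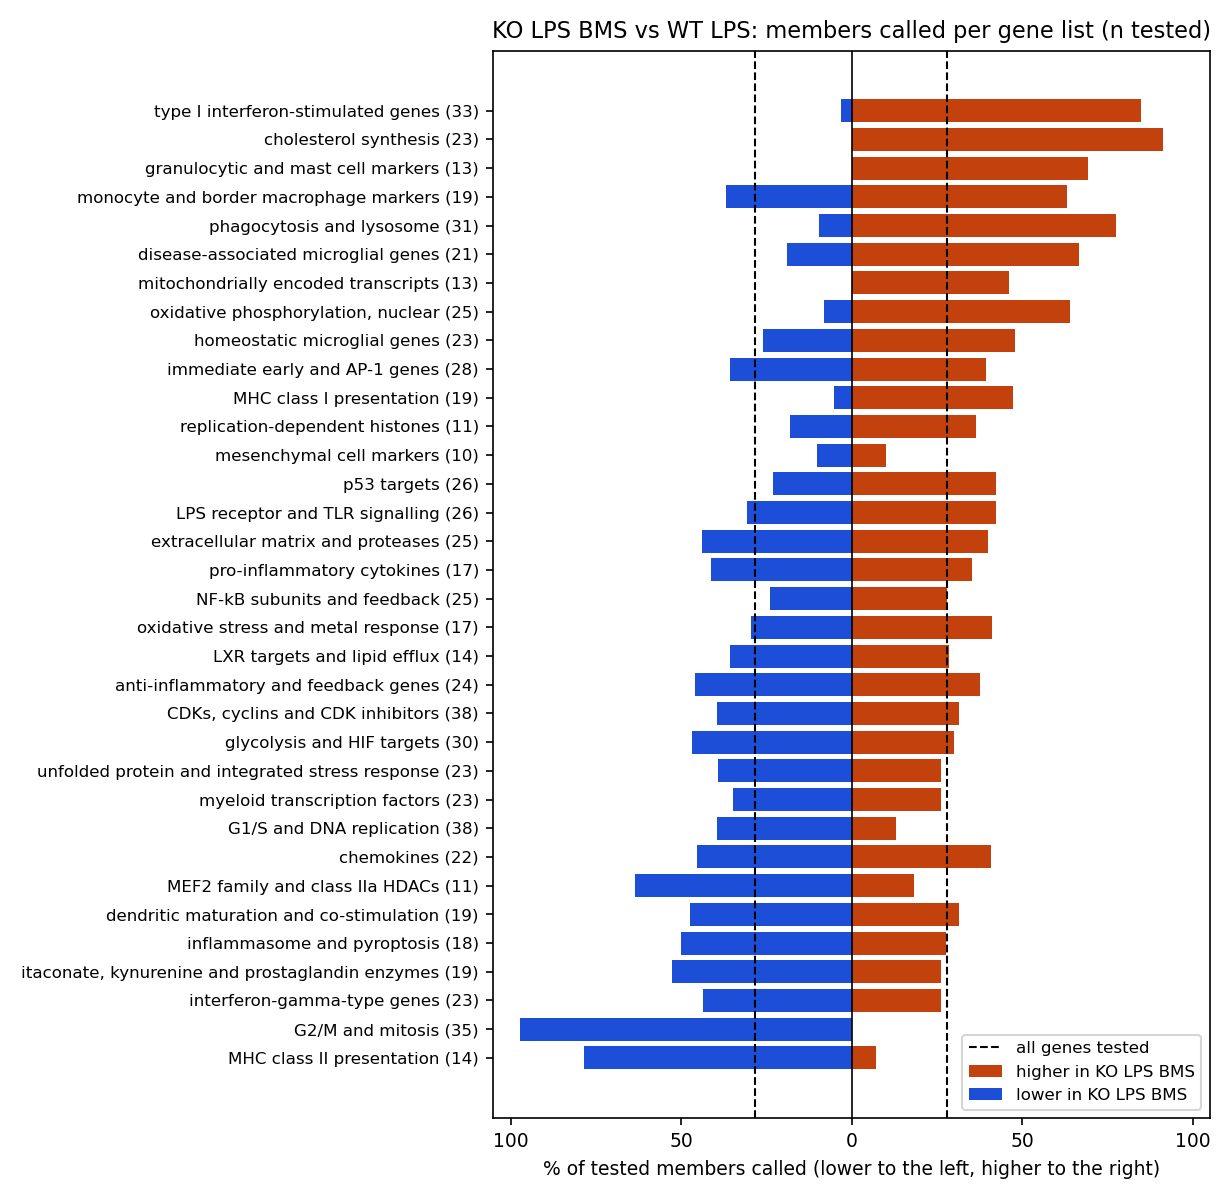
Share of tested members called higher (right) and lower (left) in KO LPS BMS against WT LPS for the gene lists with 10 or more tested members, ordered by median log2 fold change; dashed lines give the shares over all genes, 28.1% and 28.3%. Interferon-stimulated and cholesterol synthesis genes lean to the right, and mitosis and MHC class II genes to the left.

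Against WT LPS, the cytokines of KO LPS BMS cells did not move as a block. Among 17 tested genes of pro-inflammatory cytokines the calls were 6 higher, 7 lower and 4 not called, with a median log2 fold change of 0.05, beside 56.4% called and a median of 0.01 over all genes. In KO LPS against WT LPS, 11 were higher, 1 lower and 5 not called (median 0.45), beside 15.6% of all genes called higher. In KO LPS BMS against KO LPS, 2 were higher, 9 lower and 6 not called (median -0.32), beside 25.5% of all genes called lower. IL6, the main inducer of the acute-phase response (ENSG00000136244, chromosome 7, 22725884 to 22732002, plus strand), had 70.7 and 68.6 CPM in KO LPS BMS, 257 and 247 CPM in KO LPS and 156 and 135 CPM in WT LPS. It fell below WT LPS in KO LPS BMS (-1.07 ± 0.08, adjusted p = 1.54e-10), although it was above WT LPS in KO LPS (0.79 ± 0.07). IL1B, the inflammasome-processed pyrogenic cytokine, had 3477 and 3357 CPM in KO LPS BMS, 4689 and 4612 CPM in KO LPS and 4854 and 4573 CPM in WT LPS. IL1B was lower with the compound (-0.46 ± 0.06), while KO LPS and WT LPS overlapped. IL1A fell too (-0.67 ± 0.07). TNF, the early macrophage cytokine, went the other way, with 54.9 and 47.6 CPM in KO LPS BMS, 44.1 and 48.7 CPM in KO LPS and 37.2 and 30.6 CPM in WT LPS. Both KO groups were above WT LPS (0.59 ± 0.12, adjusted p = 0.000263 in KO LPS BMS), and the compound comparison within KO cells was not called (0.14 ± 0.12, adjusted p = 0.342). TNFSF15, a TNF family member, rose likewise (0.78 ± 0.09).

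Among 22 tested genes of the chemokine list, 9 were higher, 10 were lower and 3 were not called, with a median of -0.19. The shares over all genes were 28.1% higher and 28.3% lower. Between KO LPS and WT LPS, 14 were higher, 2 lower and 6 not called (median 0.53), beside 15.6% of all genes called higher. Between KO LPS BMS and KO LPS, 2 were higher, 13 lower and 7 not called (median -0.52), beside 25.5% of all genes called lower. CCL2, which recruits monocytes, had 886 and 814 CPM in KO LPS BMS, 2686 and 2599 CPM in KO LPS and 1529 and 1401 CPM in WT LPS. KO LPS BMS lay below WT LPS (-0.79 ± 0.07) and KO LPS above it (0.85 ± 0.07), as for IL6. CCL5 and CCL22, which attract T cells, fell by 1.25 and 1.12, and CCL5 did not differ detectably between KO LPS and WT LPS (-0.12 ± 0.07, adjusted p = 0.234). CCL13 and CCL8, which attract monocytes, rose. CCL13 had 344 and 338 CPM in KO LPS BMS, 344 and 290.3 CPM in KO LPS and 38.3 and 38.1 CPM in WT LPS. The CCL13 libraries of both KO groups lay together, far above WT LPS (3.16 ± 0.08, adjusted p = 2.99e-17). CXCL8, the neutrophil attractant, was not called in KO LPS BMS against WT LPS (-0.16 ± 0.07, adjusted p = 0.0628, and 0.00967 to 0.244 over the alternatives). CXCL10, an interferon-induced T cell attractant, had 4.81 and 4.12 CPM in KO LPS BMS, 36.2 and 35.9 CPM in KO LPS and 10.9 and 10.7 CPM in WT LPS. The replicates lay close together, KO LPS BMS was lowest and KO LPS highest, yet the difference from WT LPS was not called in the fit over all 12 libraries (-1.28 ± 0.50, adjusted p = 0.0579). It was called when only the libraries with LPS, or only the 4 compared, were fitted (adjusted p = 1.13e-05 and 5.48e-05) and with the replicate number as a block (adjusted p = 0.0426), and over all alternatives the adjusted p was 1.13e-05 to 0.214.

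**Figure D3:**
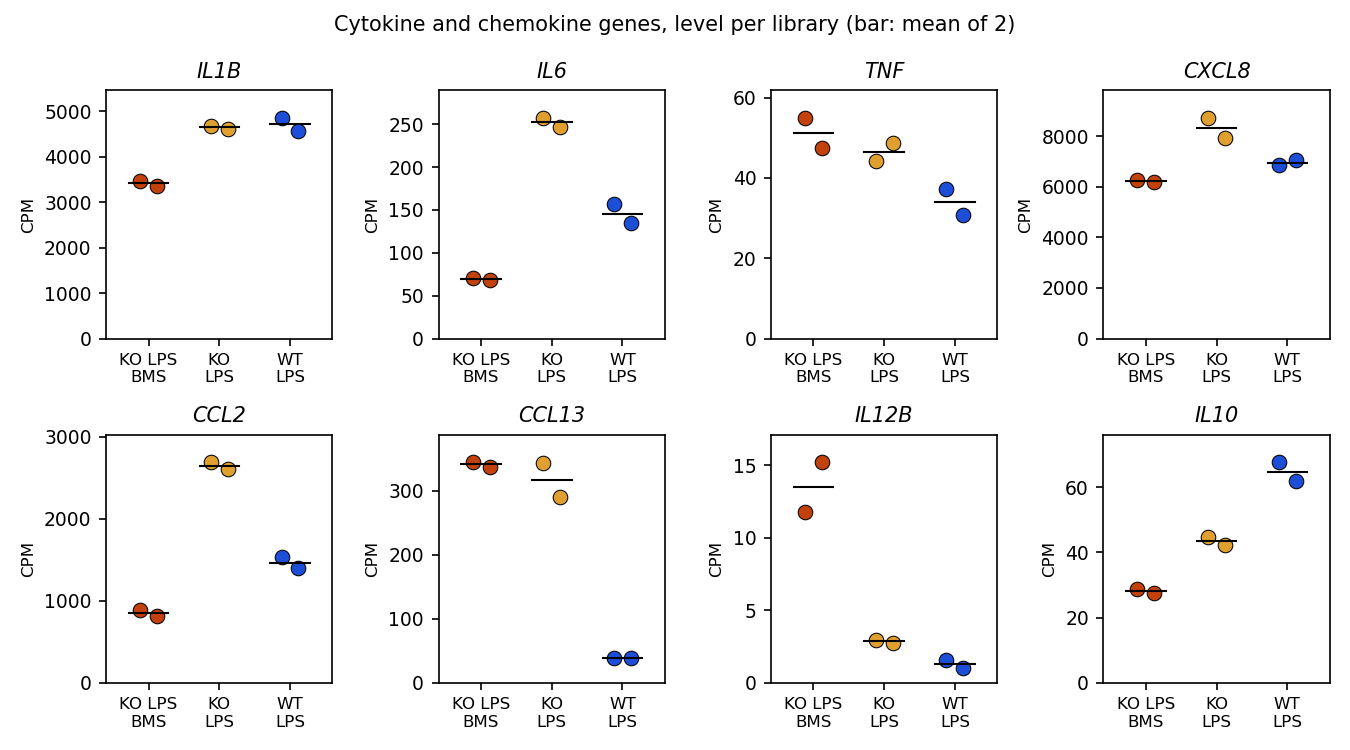
CPM per library (points) and mean of 2 (bar) of cytokine and chemokine genes in KO LPS BMS, KO LPS and WT LPS, each panel with its own axis from 0. IL6 and CCL2 lie below WT LPS in KO LPS BMS and above it in KO LPS.

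Signalling genes upstream of these cytokines were split as well, beside 28.1% of all genes called higher and 28.3% lower. For the LPS receptor and TLR pathway, of 26 tested genes, 11 were higher, 8 were lower and 7 were not called (median 0.08). IRAK2, a kinase of the TLR complex, had 240.1 and 235 CPM in KO LPS BMS, 90.03 and 91.4 CPM in KO LPS and 75.2 and 73.6 CPM in WT LPS. It was highest in KO LPS BMS (1.67 ± 0.07), and MAP3K8, a kinase that links TLRs to ERK, rose by 1.01 on the log2 scale. IRAK4, the first kinase of the complex, had 8.04 and 8.18 CPM in KO LPS BMS, 16.2 and 14.7 CPM in KO LPS and 23.2 and 26.5 CPM in WT LPS, lower in KO LPS BMS than in WT LPS (-1.61 ± 0.12), and the endosomal RNA sensor TLR8 fell by 1.54. Of 25 NF-kB subunits and feedback genes, 7 were higher, 6 were lower and 12 were not called (median 0.05). The share called, 52%, was near the 56.4% over all genes. RELA, the main activating subunit, rose (0.78 ± 0.10), as did N4BP1 (0.74 ± 0.06), whereas the feedback gene TNIP3 (-2.06 ± 0.09) and SOD2, the mitochondrial superoxide dismutase that NF-kB induces (-0.92 ± 0.04), fell. Of 18 inflammasome and pyroptosis genes, 5 were higher, 9 were lower and 4 were not called (median -0.24). NLRC4, an inflammasome protein of the response to bacterial flagellin, had 13.6 and 12.4 CPM in KO LPS BMS, 52 and 48.3 CPM in KO LPS and 61.5 and 65.8 CPM in WT LPS. CASP5, an intracellular LPS sensor, fell by 2.35, P2RX7, the ATP receptor, rose by 1.08 and the cytokine IL18 rose by 0.71. NLRC4 differed from WT LPS by little before the compound (-0.34 ± 0.08) and by much with it (-2.30 ± 0.09).

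Of 24 anti-inflammatory and feedback genes, 9 were higher, 11 were lower and 4 were not called (median -0.09), beside 28.1% of all genes called higher and 28.3% lower. IL10, the main cytokine that limits macrophage activation, had 28.8 and 27.6 CPM in KO LPS BMS, 44.8 and 42.4 CPM in KO LPS and 67.7 and 62 CPM in WT LPS and fell (-1.20 ± 0.11, adjusted p = 4.85e-09). The inhibitory receptors LILRB1 and LILRB2, which have close relatives whose reads may be shared, fell by 1.68 and 1.14. MRC1, the mannose receptor of alternatively activated macrophages, had 1011 and 1022 CPM in KO LPS BMS, 677 and 597 CPM in KO LPS and 279.8 and 309 CPM in WT LPS, and the scavenger receptor MSR1 rose by 1.95. MRC1 was stepwise higher in KO LPS and KO LPS BMS with no overlap.

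Interferon-stimulated genes were higher in KO LPS BMS cells than in WT LPS cells. Of 33 tested type I interferon-stimulated genes, 28 were higher, 1 was lower and 4 were not called, with a median log2 fold change of 1.44, beside 28.1% of all genes called higher. Between KO LPS and WT LPS, where 15.6% of all genes were called higher, of the same 33, 32 were higher, 0 were lower and 1 was not called (median 1.49). Their summed level was 3070 to 3611 CPM in WT and 5650 to 5951 CPM in KO without LPS. With LPS it was 1848 to 1922 CPM in WT LPS, 4334 to 4730 CPM in KO LPS and 5027 to 5547 CPM in KO LPS BMS. The promoters of IFIT5 and MX1 are shown because these genes rose and because their start regions hold matches to the core of the interferon-stimulated response element, the site that interferon-activated factors bind. They are RefSeq sequences of GRCh38.p14, from 250 bases before to 50 after the start, at chr10:89414318-89414617 (plus strand) for IFIT5 and chr21:41420308-41420607 (plus strand) for MX1, and capitals mark matches on either strand to GAAANNGAAA, where N is any base.
IFIT5: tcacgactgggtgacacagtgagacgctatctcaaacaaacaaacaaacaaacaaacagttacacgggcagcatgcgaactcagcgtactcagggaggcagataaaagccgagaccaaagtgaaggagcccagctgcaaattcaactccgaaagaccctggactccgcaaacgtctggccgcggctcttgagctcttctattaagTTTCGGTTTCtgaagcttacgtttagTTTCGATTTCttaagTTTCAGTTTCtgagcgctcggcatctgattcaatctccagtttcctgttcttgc
MX1: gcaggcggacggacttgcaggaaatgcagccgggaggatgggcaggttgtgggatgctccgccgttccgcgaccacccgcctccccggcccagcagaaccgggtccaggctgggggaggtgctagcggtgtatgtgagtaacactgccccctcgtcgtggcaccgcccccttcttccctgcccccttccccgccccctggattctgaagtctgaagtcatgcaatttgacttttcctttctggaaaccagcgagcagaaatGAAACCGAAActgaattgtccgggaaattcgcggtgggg
The matches lie on the minus strand in IFIT5 and on the plus strand in MX1, for which the table holds 3 start regions, 2 of them with a match. Of the 33 tested members 25 had a promoter in the RefSeq table, and 18 of these (72%) held at least 1 match, against 1195 of 27305 genes (4.38%) in the whole table. A match is a description of the sequence, and 15 of the 21 members called higher that had a promoter held one.

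IFIT5, an RNA-binding antiviral protein, had 70.8 and 71.3 CPM in KO LPS BMS, 36.3 and 36.7 CPM in KO LPS and 18.8 and 19.8 CPM in WT LPS, with no overlap and a further step with the compound (1.88 ± 0.10 against WT LPS, 0.96 ± 0.10 against KO LPS). MX1, the antiviral GTPase, had 307 and 294 CPM in KO LPS BMS, 267 and 269.9 CPM in KO LPS and 62 and 56.4 CPM in WT LPS. Its KO LPS BMS and KO LPS libraries lay close together, and all were well above WT LPS (2.34 ± 0.16, adjusted p = 8.73e-07). CMPK2, a nucleotide kinase induced by interferon, had 127 and 118 CPM in KO LPS BMS, 115 and 115 CPM in KO LPS and 36.8 and 37.1 CPM in WT LPS, the same arrangement. SAMD9, an antiviral restriction factor, was the 1 member called lower (-0.30 ± 0.12, adjusted p = 0.0317), and its call was lost under some alternatives. It had 29.1 and 31.6 CPM in KO LPS BMS, 65.3 and 54.3 CPM in KO LPS and 32.2 and 42.8 CPM in WT LPS, so it lay above WT LPS only in KO LPS. Genes typical of interferon gamma were split, beside 28.1% of all genes called higher and 28.3% lower. Of 23 tested, 6 were higher, 10 were lower and 7 were not called (median -0.26). IRF8, a transcription factor that microglia need for their identity (ENSG00000140968, chromosome 16, 85898803 to 85922609, plus strand), had 815 and 776 CPM in KO LPS BMS, 204 and 226 CPM in KO LPS and 185 and 175 CPM in WT LPS. KO LPS BMS stood far above both other groups (2.14 ± 0.06, adjusted p = 1.25e-16), and KO LPS slightly above WT LPS. The complement inhibitor SERPING1 rose by 1.29, and the GTPase GBP2, which has close paralogs, fell by 1.12.

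Genes of MHC class II presentation were lower in KO LPS BMS than in WT LPS. Of 14 tested, 1 was higher, 11 were lower and 2 were not called (median -1.03), beside 28.3% of all genes called lower, and in KO LPS against WT LPS, 0 were higher, 12 were lower and 2 were not called (median -1.39), beside 15%. CIITA, the master activator of class II genes (ENSG00000179583, chromosome 16, 10866222 to 10943021, plus strand), had 13.6 and 13.6 CPM in KO LPS BMS, 13.5 and 13.8 CPM in KO LPS and 62.7 and 59.9 CPM in WT LPS. It fell (-2.17 ± 0.09, adjusted p = 1.3e-14), and the KO LPS BMS and KO LPS libraries lay at one level. HLA-DRA had 863 and 879.5 CPM in KO LPS BMS, 738 and 726 CPM in KO LPS and 2478 and 2429 CPM in WT LPS, and the invariant chain CD74 had 2868 and 2611 CPM in KO LPS BMS, 2212 and 2534 CPM in KO LPS and 5638 and 4517 CPM in WT LPS. Both lay far below WT LPS in KO LPS BMS (-1.49 ± 0.06 and -0.89 ± 0.09), and HLA-DRA was slightly higher with the compound than without (0.25 ± 0.06, adjusted p = 0.0011), while the compound comparison of CD74 was not called (0.21 ± 0.09, adjusted p = 0.0856). HLA-DMB, which helps to load class II peptides, was the 1 member called higher (0.57 ± 0.07). Reads of HLA genes may be shared between near-identical copies, so their levels are uncertain.

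The CD1 genes, which present lipids, were mostly lower: of 5 tested, 1 was higher, 4 were lower and 0 were not called. This count and those of the class I and dendritic lists below stand beside 28.1% of all genes called higher and 28.3% lower. The CD1 gene called higher was CD1B (0.30 ± 0.11, adjusted p = 0.028), and its call was lost under some alternatives. The median of the CD1 genes was -0.44. In KO LPS against WT LPS, 0 were higher and 5 lower (median -1.07), beside 15% of all genes called lower. CD1E had 18 and 15.6 CPM in KO LPS BMS, 10.2 and 9.85 CPM in KO LPS and 47.8 and 44.2 CPM in WT LPS, and CD1A had 16.1 and 16.1 CPM in KO LPS BMS, 9.996 and 8.55 CPM in KO LPS and 23.3 and 24.3 CPM in WT LPS. In both, KO LPS was lowest, KO LPS BMS lay between and WT LPS was highest. Of 19 MHC class I genes, 9 were higher, 1 was lower and 9 were not called (median 0.15), with rises in HLA-E (0.96 ± 0.06) and in B2M, the shared light chain (0.52 ± 0.06), and a fall in NLRC5, their transcriptional activator (-0.87 ± 0.12). Of 19 dendritic maturation and co-stimulation genes, 6 were higher, 9 were lower and 4 were not called (median -0.22). IL7R, the interleukin-7 receptor, had 832 and 879 CPM in KO LPS BMS, 2439 and 2408 CPM in KO LPS and 6212 and 6946 CPM in WT LPS, lowest in KO LPS BMS and highest in WT LPS without overlap (-2.94 ± 0.06, adjusted p = 1.51e-18). The adhesion receptor SLAMF1 fell by 1.78, the maturation marker CD83 rose by 0.76 and the co-stimulatory ligand ICOSLG rose by 1.06.

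Genes of phagocytosis, lysosomes and disease-associated microglia were mostly above WT LPS. Of 23 homeostatic genes, 11 were higher, 6 were lower and 6 were not called (median 0.23), of 21 disease-associated genes, 14 were higher, 4 were lower and 3 were not called (median 0.42), and of 31 phagocytosis and lysosome genes, 24 were higher, 3 were lower and 4 were not called (median 0.55). Over all genes, 28.1% were called higher and 28.3% lower. KO LPS against WT LPS gave 12 higher and 5 lower disease-associated genes (median 0.27), beside 15.6% higher and 15% lower of all genes. In that comparison phagocytosis and lysosome genes were 16 higher and 3 lower (median 0.25), and homeostatic genes 7 higher and 4 lower (median 0.13). TREM2, the lipid-sensing receptor of disease-associated microglia, had 284 and 269 CPM in KO LPS BMS, 166 and 191 CPM in KO LPS and 116 and 97.2 CPM in WT LPS, stepwise and without overlap (1.37 ± 0.08, adjusted p = 2.03e-12). P2RY12, the ADP receptor lost on activation, had 5.99 and 5.41 CPM in KO LPS BMS, 1.94 and 1.78 CPM in KO LPS and 1.93 and 1.69 CPM in WT LPS. It rose (1.65 ± 0.22, adjusted p = 1.12e-06) while KO LPS lay at the level of WT LPS, but the level remained low. MERTK, a receptor for dying cells, had 168 and 171 CPM in KO LPS BMS, 69.3 and 62.7 CPM in KO LPS and 35.5 and 37.5 CPM in WT LPS, again in steps. CX3CR1, the fractalkine receptor, had 56.6 and 56.8 CPM in KO LPS BMS, 86.6 and 83.5 CPM in KO LPS and 91.8 and 105 CPM in WT LPS, lowest in KO LPS BMS (-0.80 ± 0.07, adjusted p = 6.88e-09). The ADP receptor P2RY13 fell by 1.89, the protease inhibitor CST7 by 1.5, the fatty-acid receptor CD36 by 0.79 and CSF1R, the survival receptor of microglia, by 0.41. Rises were also seen for the integrin ITGAM (1.17 ± 0.06) and the lysosomal protease CTSL (1.14 ± 0.06). LPL, lipoprotein lipase, fell by 0.36, and FCGR1A, an Fc receptor with near-identical copies, by 0.86.

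Myeloid transcription factors were divided, as were all genes, with 28.1% called higher and 28.3% lower. Of 23, 6 were higher, 8 were lower and 9 were not called (median -0.15). Beside IRF8, the repressor ETV3 rose against WT LPS (0.77 ± 0.06) although it was below WT LPS in KO LPS (-0.69 ± 0.07). MAF, a factor of resident macrophages, had 71.9 and 70.9 CPM in KO LPS BMS, 161 and 189 CPM in KO LPS and 211 and 199 CPM in WT LPS, lowest in KO LPS BMS (-1.52 ± 0.07), whereas IRF4, a factor of dendritic cells, had 10.3 and 12.4 CPM in KO LPS BMS, 9.996 and 10.7 CPM in KO LPS and 40.8 and 35.9 CPM in WT LPS, low in both KO groups. Of 11 genes of the MEF2 family and its class IIa HDAC partners, 2 were higher, 7 were lower and 2 were not called (median -0.20), with falls in HDAC9 (-0.63 ± 0.14) and HDAC7 (-0.42 ± 0.10) and rises in MEF2A (0.25 ± 0.07) and MAPK7, a kinase upstream of MEF2 proteins (0.97 ± 0.14). The call of MEF2A was lost under some alternatives. Of 28 immediate early and AP-1 genes, 11 were higher, 10 were lower and 7 were not called (median 0.21), with rises in ATF3 (1.18 ± 0.08) and EGR2 (1.38 ± 0.11) and falls in the nuclear receptors NR4A1 (-1.89 ± 0.17) and NR4A3 (-1.69 ± 0.15). MYC rose as well (0.73 ± 0.12).

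Mitotic genes were lower in KO LPS BMS cells almost throughout. Of 35 tested G2/M genes, 0 were higher, 34 were lower and 1 was not called (median -0.88), beside 28.3% of all genes called lower, and in KO LPS against WT LPS, 0 were higher, 28 were lower and 7 were not called (median -0.40), beside 15%. TOP2A, the topoisomerase of dividing cells, had 86 and 78.5 CPM in KO LPS BMS, 196 and 171 CPM in KO LPS and 246 and 299.9 CPM in WT LPS. NUSAP1, a spindle protein, fell by 1.46, CDK1, the kinase of mitotic entry, by 0.91, and the proliferation marker MKI67 by 0.48. TOP2A fell in steps, with no overlap between groups. In these bulk samples, fewer dividing cells and less of such RNA per cell cannot be told apart, and the same holds for every marker below. Of 38 G1/S and DNA replication genes, 5 were higher, 15 were lower and 18 were not called (median -0.19). The share called was 52.6%, near the 56.4% over all genes (28.1% higher and 28.3% lower). RRM2, which supplies deoxynucleotides, and POLA2, a polymerase subunit, fell by 1.23 and 1.25, while the licensing factor CDT1 (0.95 ± 0.17) and the ligase LIG1 (0.41 ± 0.09) rose.

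Of 38 CDKs, cyclins and their inhibitors, 12 were higher, 15 were lower and 11 were not called (median -0.11). This count and those of the p53 and histone lists stand beside 28.1% of all genes called higher and 28.3% lower. CDK2 itself had 20.3 and 17.2 CPM in KO LPS BMS, 20.3 and 17.1 CPM in KO LPS and 21.6 and 24.8 CPM in WT LPS. Its RNA was slightly lower than in WT LPS (-0.31 ± 0.12, adjusted p = 0.0331), did not differ detectably with the compound within KO cells (0.00 ± 0.12, adjusted p = 0.999), and its call was lost under some alternatives. HEXIM1, which holds the transcription elongation kinase P-TEFb inactive (ENSG00000186834, chromosome 17, 45148502 to 45152101, plus strand), had 12.1 and 11.5 CPM in KO LPS BMS, 75.2 and 79.7 CPM in KO LPS and 78.1 and 70.4 CPM in WT LPS. The KO LPS BMS libraries stood far below all others (-2.65 ± 0.09, adjusted p = 5.26e-16), and KO LPS lay at the level of WT LPS. CCND1 and CDK6, which act together in G1, rose by 1.38 and 1.37, and RB1, the pocket protein they phosphorylate, fell by 1.10. Of 26 p53 targets, 11 were higher, 6 were lower and 9 were not called (median 0.13), with rises in AEN (1.64 ± 0.09) and the repair gene DDB2 (1.54 ± 0.08) and falls in PLK2 (-1.09 ± 0.15) and BTG2 (-0.40 ± 0.07). CDKN1A, the p53-induced CDK inhibitor, had -0.20 ± 0.07, a call that was also lost under some alternatives. Of 11 histone genes, whose near-identical copies make their counts uncertain, 4 were higher, 2 were lower and 5 were not called, with H2BC21 at -2.26 ± 0.17 and H2BC5 at 0.86 ± 0.14.

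**Figure D4:**
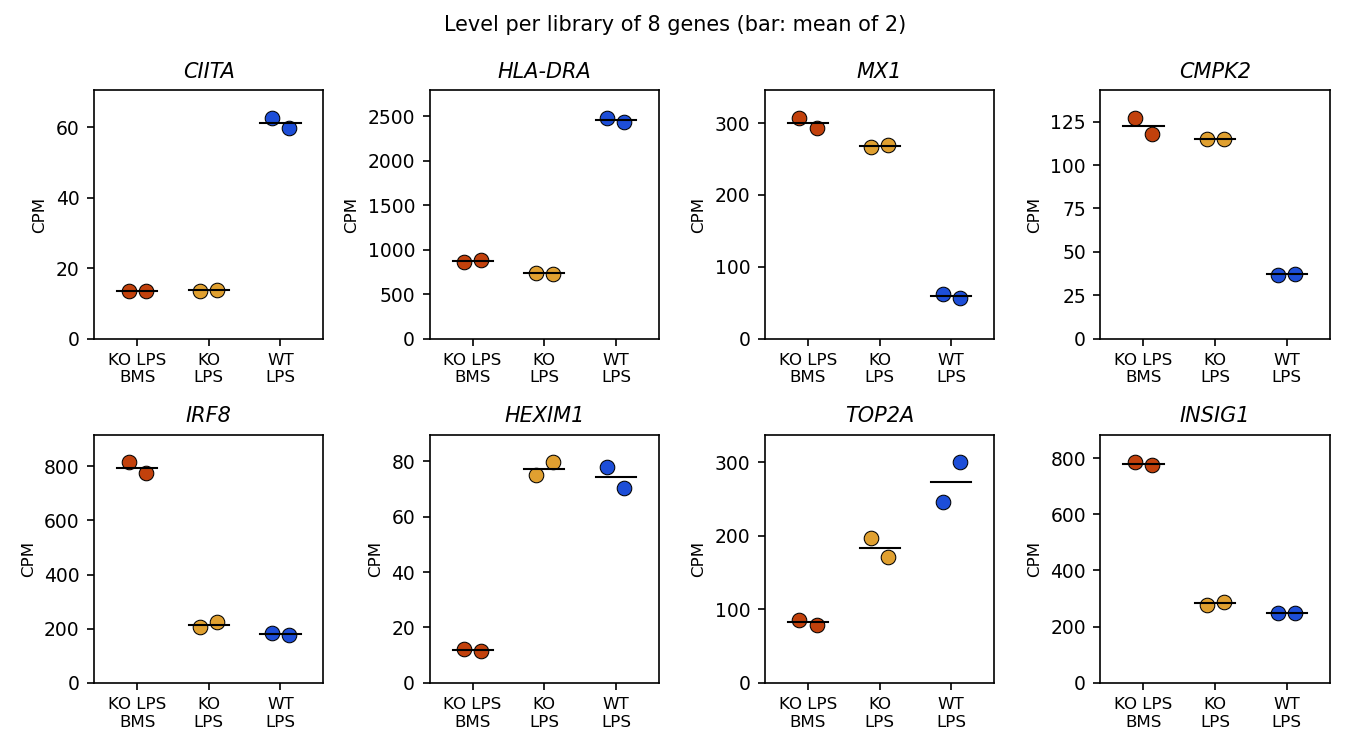
CPM per library (points) and mean of 2 (bar) of 8 genes in KO LPS BMS, KO LPS and WT LPS, each panel with its own axis from 0. CIITA and HLA-DRA are low and MX1 and CMPK2 high in both KO groups, while in KO LPS BMS IRF8 and INSIG1 stand far above and HEXIM1 far below both other groups.

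Cholesterol synthesis genes were higher with the compound. Of 23 tested, 21 were higher, 0 were lower and 2 were not called against WT LPS (median 0.78), beside 28.1% of all genes called higher. In KO LPS BMS against KO LPS, where 22.3% of all genes were called higher, 21 were higher, 1 was lower and 1 was not called. INSIG1, a feedback regulator of sterol synthesis (ENSG00000186480, chromosome 7, 155297776 to 155310235, plus strand), had 785 and 775 CPM in KO LPS BMS, 278 and 289 CPM in KO LPS and 249.7 and 249 CPM in WT LPS. MSMO1, a sterol oxidase, had 271 and 274 CPM in KO LPS BMS, 111 and 102 CPM in KO LPS and 112 and 112 CPM in WT LPS. In INSIG1 and MSMO1 the KO LPS BMS libraries were far above the rest, and KO LPS lay close to WT LPS. Of 14 LXR targets, 4 were higher, 5 were lower and 5 were not called against WT LPS (median -0.05). This count stands beside 28.1% of all genes called higher and 28.3% lower. SCD, the fatty-acid desaturase (1.54 ± 0.05), and APOC1 (0.60 ± 0.10) rose, and SMPDL3A (-2.38 ± 0.09) and PLTP (-0.64 ± 0.08) fell.

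Genes of energy metabolism were divided. Over all genes, 28.1% were called higher and 28.3% lower in KO LPS BMS against WT LPS. Of 25 nuclear oxidative phosphorylation genes, 16 were higher, 2 were lower and 7 were not called (median 0.26), led by the complex I genes NDUFV1 (0.79 ± 0.10) and NDUFB5 (0.53 ± 0.08). Of 13 mitochondrially encoded transcripts, 6 were higher, 0 were lower and 7 were not called (median 0.29). In KO LPS against WT LPS, 0 were higher, 7 were lower and 6 were not called, beside 15% of all genes called lower. In KO LPS BMS against KO LPS, 12 were higher, 0 were lower and 1 was not called, beside 22.3% of all genes called higher. The share of mitochondrially encoded transcripts in all counts was 1.36% and 1.69% in KO LPS BMS, 1.09% and 1.06% in KO LPS, and 1.29% and 1.44% in WT LPS, so KO LPS BMS and WT LPS overlapped. Of 30 glycolysis and HIF target genes, 9 were higher, 14 were lower and 7 were not called (median -0.12). LDHA, which makes lactate, had 412 and 424 CPM in KO LPS BMS, 720.3 and 678 CPM in KO LPS and 847 and 861 CPM in WT LPS, and PFKFB3, an activator of glycolysis, fell by 1.11. The hexokinase HK3 and the glucose transporter SLC2A3 rose by 1.48 and 0.75.

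Several enzymes that LPS induces in macrophages were lower. The list counts of this paragraph stand beside 28.1% of all genes called higher, 28.3% lower and 56.4% in either direction. Of 19 itaconate, kynurenine and prostaglandin enzymes, 5 were higher, 10 were lower and 4 were not called (median -0.26). Next to ACOD1, NAMPT, the enzyme of NAD salvage, had 522 and 531 CPM in KO LPS BMS, 1601 and 1552 CPM in KO LPS and 1723 and 1838 CPM in WT LPS. NAMPT was lowest in KO LPS BMS (-1.76 ± 0.06, adjusted p = 3.22e-16) and little lower in KO LPS than in WT LPS (-0.18 ± 0.05), while PTGS1 and ALOX5AP, of prostaglandin and leukotriene synthesis, rose by 1.12 and 0.88. Of 17 oxidative stress and metal genes, 7 were higher, 5 were lower and 5 were not called (median 0.03), and SLC39A8, the zinc importer that NF-kB induces, had 192 and 182 CPM in KO LPS BMS, 699.7 and 695 CPM in KO LPS and 807 and 815 CPM in WT LPS, lowest in KO LPS BMS (-2.12 ± 0.06). The zinc exporter SLC30A1 rose by 0.54, and thioredoxin, TXN, fell by 0.67. Of 23 unfolded protein and integrated stress response genes, 6 were higher, 9 were lower and 8 were not called (median -0.15). ASNS and PSAT1, which make asparagine and serine, fell by 2.30 and 1.90, and PPP1R15A rose by 0.77. Of 25 matrix and protease genes, 10 were higher, 11 were lower and 4 were not called (median 0.06). TIMP3, a protease inhibitor, rose (2.00 ± 0.06), as did fibronectin, FN1 (1.06 ± 0.06), while the pentraxin PTX3 (-2.30 ± 0.11) and thrombospondin, THBS1 (-1.97 ± 0.06), fell.

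Single genes fell into 3 arrangements, chosen by their values and therefore given as descriptions. In the first, KO LPS differed from WT LPS and KO LPS BMS lay within 1.5-fold of WT LPS by its 95% interval. It included OSGIN1, an oxidative stress response gene, with 6.22 and 4.96 CPM in KO LPS BMS, 11.4 and 11.3 CPM in KO LPS and 6.31 and 4.44 CPM in WT LPS, and MVB12B, a subunit of the endosomal sorting machinery, with 4.73 and 5.47 CPM in KO LPS BMS, 12.6 and 12.1 CPM in KO LPS and 5.05 and 5.38 CPM in WT LPS. KO LPS BMS overlapped WT LPS in both, and KO LPS lay above. Among genes low in KO LPS it held HLA-DMA, a class II loading factor with 70.4 and 81.5 CPM in KO LPS BMS, 46.6 and 43.1 CPM in KO LPS and 87.6 and 87.1 CPM in WT LPS, ITGB8, an integrin that activates TGF-beta, with 63.2 and 83.7 CPM in KO LPS BMS, 26.6 and 30.6 CPM in KO LPS and 59.7 and 57.6 CPM in WT LPS, and CD1C, with 39.95 and 40.3 CPM in KO LPS BMS, 25.3 and 23.9 CPM in KO LPS and 51 and 52.5 CPM in WT LPS. CD1C and HLA-DMA still lay below WT LPS and ITGB8 above it, each by a small called difference, of which those of HLA-DMA and ITGB8 were lost under some alternatives. ATOH8, NES, BTBD19 and ENPP4 (high in KO LPS) and DLL4, CDYL2 and RGL1 (low in KO LPS) completed the set.

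In the second arrangement KO LPS lay within 1.5-fold of WT LPS and KO LPS BMS did not. IRF8 and HEXIM1 belonged to it. PPP1R10, a nuclear subunit of protein phosphatase 1, had 11.9 and 10.4 CPM in KO LPS BMS, 90.3 and 96.4 CPM in KO LPS and 96.3 and 97.6 CPM in WT LPS, and INHBA, the activin subunit, had 398 and 422 CPM in KO LPS BMS, 121 and 124 CPM in KO LPS and 99.8 and 104 CPM in WT LPS. In PPP1R10 the KO LPS BMS libraries were low and in INHBA high, and KO LPS lay beside WT LPS in both. The antiviral zinc-finger gene ZC3HAV1 rose by 1.94, AP3S2, an adaptor subunit, by 1.99 and CLN8, a protein of the endoplasmic reticulum, by 2.35. CHI3L2, NABP1 and KCNJ15 fell by 2.45 to 2.74. ZC3H12A-DT, which lies beside ZC3H12A, rose and the pseudogene HTR7P1 fell, and reads of both may belong to neighbouring or related genes.

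In the last arrangement, both KO groups differed from WT LPS and lay within 1.5-fold of each other. IBSP, CCL13, MX1 and CIITA belonged to it. LAMP3, a lysosomal protein of mature dendritic cells, had 69.5 and 74.3 CPM in KO LPS BMS, 64.4 and 69.6 CPM in KO LPS and 422 and 418 CPM in WT LPS, and SLC38A1, a glutamine transporter, had 7.09 and 6.95 CPM in KO LPS BMS, 7.16 and 7.66 CPM in KO LPS and 45.4 and 49 CPM in WT LPS. TRPV4, a calcium channel, had 28.3 and 26 CPM in KO LPS BMS, 28.6 and 33 CPM in KO LPS and 6.45 and 5.13 CPM in WT LPS, and DYSF, the membrane repair protein dysferlin, rose by 2.57. LAMP3 and SLC38A1 were low and TRPV4 high in all 4 KO libraries with LPS, and none of these genes was called between KO LPS BMS and KO LPS. P2RY10, TLR10 and the sodium channel gene SCN9A fell by 1.97 to 2.06, and the antisense gene TSPEAR-AS1 rose by 2.37.

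**Figure D5:**
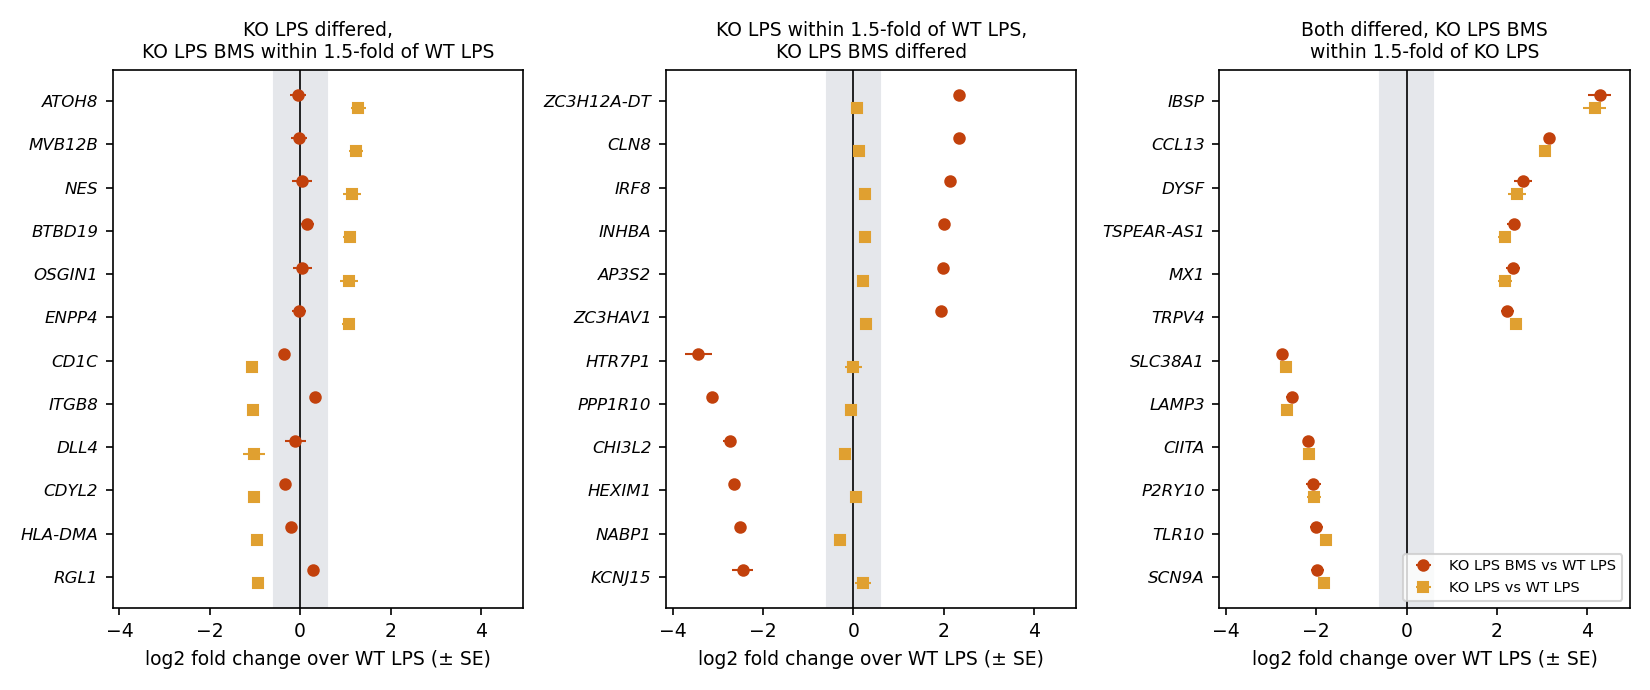
Log2 fold change over WT LPS (± SE) of KO LPS BMS (circles) and KO LPS (squares) for the genes of the 3 arrangements, 12 genes each, with the band of 1.5-fold in grey. Circles leave the band in the middle and right panels, and squares in the left and right panels.

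Marker genes of cells other than microglia differed between the groups, and their part in the results was not tested. The counts below stand beside 28.1% of all genes called higher, 28.3% called lower and 56.4% called in either direction. Of 19 monocyte and border macrophage markers, 12 were higher, 7 were lower and 0 were not called, and their summed level was 7806 to 8158 CPM in KO LPS BMS, 7575 to 7671 CPM in KO LPS and 5201 to 5278 CPM in WT LPS. Both KO groups were above WT LPS, although the monocyte receptors CCR2 and CD93 fell by 1.69 and 2.09. Of 18 granulocytic and mast cell markers 13 were tested, of which 9 were higher, 0 were lower and 4 were not called, with sums of 1242 to 1257 CPM in KO LPS BMS, 1207 to 1218 CPM in KO LPS and 926 to 950.1 CPM in WT LPS. ELANE was at 0 in KO LPS BMS, and PRTN3 and AZU1 were at 0 in WT LPS. Endothelial markers summed to 974 to 1055 CPM in KO LPS BMS, 763 to 840.5 CPM in KO LPS and 639.5 to 687 CPM in WT LPS, and of the 8 tested of 11 listed, 5 were higher, 0 were lower and 3 were not called. CLDN5 was at 0 in both KO LPS BMS and WT LPS, and EMCN in KO LPS BMS. PECAM1, which macrophages also express, rose by 1.00. Haematopoietic progenitor markers summed to 228 to 246 CPM in KO LPS BMS, 182 to 232 CPM in KO LPS and 128 to 153 CPM in WT LPS, and of 7 tested, 3 were higher, 1 was lower and 3 were not called, with a rise of 0.91 in KIT.

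Most of the other marker lists lacked several of their defining genes. Erythroid and megakaryocytic markers summed to 45.9 to 48.1 CPM in KO LPS BMS, 44 to 51.2 CPM in KO LPS and 26.1 to 28.6 CPM in WT LPS, with 3 higher, 0 lower and 2 not called of 5 tested and the haemoglobin genes HBA2, HBB and HBG1 at 0 in KO LPS BMS and WT LPS. Mesenchymal markers summed to 415 to 480.0 CPM in KO LPS BMS, 323 to 457 CPM in KO LPS and 412 to 498 CPM in WT LPS (1 higher, 1 lower and 8 not called). Pluripotent cell markers summed to 27.3 to 29.8 CPM in KO LPS BMS, 45.1 to 51.4 CPM in KO LPS and 40.1 to 48 CPM in WT LPS (1 higher, 2 lower and 1 not called), and NANOG and LIN28A were at 0 in KO LPS BMS and WT LPS. Neuron markers summed to 3.67 to 3.86 CPM in KO LPS BMS, 4.17 to 4.90 CPM in KO LPS and 2.75 to 3.26 CPM in WT LPS (1 higher, 1 lower and 1 not called), with DCX, NEFL and ELAVL3 at 0 in KO LPS BMS and WT LPS. Astrocyte and oligodendrocyte markers summed to 970.2 to 999.8 CPM in KO LPS BMS, 948 to 1007 CPM in KO LPS and 981 to 1008 CPM in WT LPS (2 higher, 2 lower and 2 not called), while AQP4, ALDH1L1, MOG and SOX10 were at 0 in KO LPS BMS and WT LPS. Lymphocyte markers summed to 21.7 to 22.3 CPM in KO LPS BMS, 26.8 to 34.3 CPM in KO LPS and 37.1 to 39 CPM in WT LPS (2 higher, 1 lower and 3 not called), with CD3G and MS4A1 at 0 in KO LPS BMS and WT LPS. KLRD1, a receptor subunit of natural killer cells, was called higher (2.05 and 3.73 CPM in KO LPS BMS, 0.129 and 0.205 CPM in KO LPS and 0.133 and 0.0625 CPM in WT LPS), and no fold is given because its WT LPS levels lay under the counting limit. A marker at 0 was not detectable at this depth.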

How the data were processed

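RNA of 12 iMGL libraries was sequenced. The authors deposited raw read counts per gene, a table of 57992 Ensembl IDs of which 24552 had no count. Per the labels' protocols, TRIzol was used for extraction and a NEBNext Ultra kit for library preparation. The submitters' processing notes name CASAVA 1.7, Cufflinks and GRCh38, and the aligner, counter and strand setting are not stated in the sources used here. Symbols came from a table of gene names (56948 IDs) and GENCODE release 29 (440 more), which also gave positions.

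Genes were kept by filterByExpr (16022), scaled by TMM (factors 0.872 to 1.117) and fitted in edgeR 4.0.16 (R 4.3.3) with 1 mean per group over all 12 libraries (quasi-likelihood, robust, two-sided, common biological coefficient of variation 0.064). Distances and components used log2 CPM with a prior count of 2. The total count ranged from 13888283 to 17639136, and the Pearson correlation of replicates across genes, which are not independent, was 0.9892 to 0.9931. In simulated data, 67 genes were changed by 1.5-fold, 67 by 2-fold and 66 by 4-fold. All other genes had equal means in KO LPS BMS and WT LPS. The test found 52.2% of genes changed by 1.5-fold, 70.1% by 2-fold and 97% by 4-fold. It made 14 false calls among 160 (8.75%, above the nominal 5%). In the real comparison 9034 genes were called, so these rates need not hold for it. Alternatives were other scalings, no filter, fewer libraries, DESeq2 1.42.0, a replicate block, a 2-fold rule and leaving out each library.

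The comparison, gene lists and tests were chosen with earlier results of these data known. Named genes were MEF2C, a panel of 16, the 10 largest called rises and falls (mean of at least 5 CPM, no overlap), up to 2 called members per direction of each list, and up to 6 genes per direction of 3 arrangements. Lists overlap (IRF8, CIITA and TREM2, for example) and some hold genes with opposite roles, so their counts are descriptions. Genes picked for size are descriptions too. A few single genes are not reported here.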

Additional observations from a re-analysis of the deposited data

How the results depend on the processing

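The count of genes called in KO LPS BMS against WT LPS, 9034, was 7743 to 9071 under scaling, filter, library, block, DESeq2 and leave-one-out alternatives. It was 7743 to 8291 with 1 library left out, where the lone sample is assumed to vary like the other groups. Calling at 2-fold or more gave 3037 (1607 higher, 1430 lower), 900 for KO LPS against WT LPS and 1884 for KO LPS BMS against KO LPS. The count for KO LPS against WT LPS depended on the libraries: 2660 with only the 4 compared, and 3005 (without KO LPS replicate 2) to 5549 (without KO LPS replicate 1) with 1 left out, with 3138 without WT LPS replicate 2. For KO LPS BMS against KO LPS it was 6242 to 6996 with 1 left out. The causes were not tested.

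Whether same-numbered libraries belong together is not stated. Their deviations from the group means correlated by 0.094 between KO LPS BMS and WT LPS and -0.143 between KO LPS and WT LPS. Between KO LPS BMS and KO LPS the value was -0.128. With 2 libraries per group, crossed numbers give the same value with the opposite sign, so these correlations cannot decide on a pairing. With the replicate block the counts were 8781, 4454 and 7379 for KO LPS BMS against WT LPS, KO LPS against WT LPS and KO LPS BMS against KO LPS. With crossed numbers, chosen after seeing the data, the KO LPS against WT LPS and KO LPS BMS against KO LPS counts were 4651 and 7514.

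Of 201 named genes, 192 were called. Outside the 2-fold rule, none reversed and 14 lost their call under at least 1 alternative, among them MEF2C, CDK2, CDKN1A, MEF2A, SAMD9, CD1B, HLA-DMA, ITGB8, H2BC8, NDUFA9, MT-ND2, MT-ND4 and PDGFRA. CXCL8 and CXCL10 were called under some. In simulated data with 2 libraries per group compared and few changed genes, 1.5-fold changes were often missed.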
